A study of Mus musculus with 6 samples.

Results

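The genes described here are 10 keratins of the mouse mammary gland: the basal layer keratins Krt5, Krt14, Krt15 and Krt17, the simple epithelial keratins Krt8, Krt18, Krt7 and Krt19, and the further keratins Krt6a and Krt23. They were taken as every non-control probe that carries a member's symbol or an older synonym of it, which gave 12 of the 41174 probes on the array (Krt7 and Krt8 have 2 probes each). All 10 are among the 24838 genes that passed the filter on dim probes. Every one of the 12 probes was unsaturated on all 6 arrays and well above background there in Cy5, the dye of the sample RNA. The study compared mammary epithelial cells of virgin C57/B6 mice heterozygous for a knockout of DNP63, the ΔN form of the transcription factor p63, with those of wild-type virgin mice of the same strain. Total RNA came from 3 preparations of each genotype: a sorted CD24+CD29hi fraction called P4 and labelled as enriched for mammary stem cells (MaSC), a sorted CD24+CD29lo fraction called P5, whose label names luminal progenitors as the enriched cells, and unsorted total mammary epithelial cells (MEC). This gives 6 groups of 1 array each: het P4, WT P4, het P5, WT P5, het MEC and WT MEC. The labels give neither the age of the mice nor how many were pooled per array, and p-values therefore measure only the spread between these arrays. The sample RNA carried Cy5 dye and was hybridised together with Cy3-labelled Universal Mouse Reference RNA, a mix of 11 cell lines, with no dye swap. Levels below are log2 ratios of sample to reference, so 1 unit is a 2-fold difference, and a level of 1 probe is not set against the level of another.

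Keratins are the intermediate filament proteins of epithelial cells, and each filament is built from pairs of 1 acidic type I keratin (Krt14, Krt15, Krt17, Krt18, Krt19 and Krt23 here) and 1 basic type II keratin (Krt5, Krt6a, Krt7 and Krt8). In the mammary gland the outer basal or myoepithelial layer is known for the pair Krt5 and Krt14, and the inner luminal layer for the pair Krt8 and Krt18, joined by Krt7 and Krt19. The ΔN form of p63 is a regulator of basal epithelial cells, and Krt5 and Krt14 are known as its targets in stratified epithelia such as skin.

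The following 60-base oligos are what the array measures for 4 members. They are shown for both directions of change: Krt14 and Krt15 were higher in P4 than in P5, Krt19 and Krt7 lower. Positions are those the array's annotation gives for build mm7; which exon or untranslated region they fall in was not looked up. The Krt14 oligo lies at chr11:100312408-100313013 on the minus strand, where its 60 bases are spread over 606 bases of genome. The Krt15 oligo lies at chr11:100241065-100241124 and the Krt19 oligo, of the neighbouring gene, at chr11:100250117-100250176, both on the minus strand. The oligo of Krt7 shown here, at chr15:101409444-101409503 on the plus strand, belongs to the second of its 2 probes.
Krt14: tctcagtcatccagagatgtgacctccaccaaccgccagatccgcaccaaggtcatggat
Krt15: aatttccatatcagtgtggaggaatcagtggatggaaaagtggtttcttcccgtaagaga
Krt19: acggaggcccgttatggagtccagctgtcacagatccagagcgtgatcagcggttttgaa
Krt7: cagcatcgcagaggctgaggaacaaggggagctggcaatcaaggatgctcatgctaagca

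Promoters are shown for the 2 classical pairs, since the members of each pair moved together in the sorted fractions. Each is the 250 bases before the gene's start from RefSeq (GRCm38.p6), whose table held 6 of the 10 members. The Krt5 window is chr15:101712906-101713155 (minus strand), the Krt14 window chr11:100206031-100206280 (minus), the Krt8 window chr15:102004343-102004592 (minus) and the Krt18 window chr15:102027966-102028215 (plus). Windows were searched on both strands for TATAAA, for GGGCGG and for the p53 family half-site, a motif of 10 bases. Capitals mark the match to that half-site in Krt5, 95 bases before the start; 7.13% of all 32851 promoter windows of this length hold one. TATAAA (in 12.4% of windows) and GGGCGG (in 32.7%) had no match in these 4 windows, which says only that these letters are not in them, and the half-site had none in Krt14, Krt8 and Krt18.
Krt5: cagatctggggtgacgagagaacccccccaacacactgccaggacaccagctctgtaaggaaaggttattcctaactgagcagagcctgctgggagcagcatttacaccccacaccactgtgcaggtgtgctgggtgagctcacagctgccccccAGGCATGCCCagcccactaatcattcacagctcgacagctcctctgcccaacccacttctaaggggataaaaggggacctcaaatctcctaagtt
Krt14: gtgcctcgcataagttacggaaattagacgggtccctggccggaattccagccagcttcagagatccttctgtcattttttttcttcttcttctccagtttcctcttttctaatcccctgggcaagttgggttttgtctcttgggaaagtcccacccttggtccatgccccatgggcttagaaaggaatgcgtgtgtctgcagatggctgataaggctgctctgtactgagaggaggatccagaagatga
Krt8: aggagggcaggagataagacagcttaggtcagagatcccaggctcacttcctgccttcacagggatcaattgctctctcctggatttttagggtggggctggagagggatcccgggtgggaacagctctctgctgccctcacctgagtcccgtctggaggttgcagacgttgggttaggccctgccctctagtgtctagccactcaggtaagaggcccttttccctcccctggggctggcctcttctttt
Krt18: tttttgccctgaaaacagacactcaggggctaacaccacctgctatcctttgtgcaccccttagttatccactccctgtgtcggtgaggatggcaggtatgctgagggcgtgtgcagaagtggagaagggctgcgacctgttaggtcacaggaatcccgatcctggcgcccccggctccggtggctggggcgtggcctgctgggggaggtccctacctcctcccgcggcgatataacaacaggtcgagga

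Each array holds 45018 spots, of which 1639 are controls. Of the other spots, between 74.3% (WT P4) and 89.8% (het MEC) exceeded background clearly in Cy5. The 4 sorted arrays share a slide and both MEC arrays share another, and on each slide the genotypes have different positions, so slide and sorting against MEC, and position and genotype, cannot be told apart. A few spots carry a local background far above the rest, up to 30168 in the Cy3 channel of WT P4 against a highest value of 51 on het P5. These spots set the background correction of their array, so results that move are also given with those backgrounds replaced. The marker lists below compare basal with luminal genes and do not check the stem or progenitor enrichment that the labels name. All 7 basal and myoepithelial markers, Oxtr and Trp63 among them, were called higher in P4 than in P5 (median log2 difference 5.60). Of 9 luminal markers 8 were called lower (median -3.48). Over all genes 5.04% were called higher and 5.53% lower. Of the surface proteins sorted on, Itgb1 (CD29) differed by 1.30 between P4 and P5 (adjusted p = 0.011) and Cd24a by -2.11 (adjusted p = 0.0429, without a value on WT MEC). The targeted gene Trp63 stood at 5.29 on het P4, 4.41 on WT P4, 0.89 on het P5, 0.46 on WT P5, 2.65 on het MEC and 2.78 on WT MEC by its brightest probe. With outlier backgrounds replaced the same probe gave 5.48 on het P4 and 5.99 on WT P4. It then gave 0.89 on het P5, 0.54 on WT P5, 2.66 on het MEC and 3.71 on WT MEC. Trp63 was thus no lower on the het P4 array with the backgrounds as given and lower with them replaced. On het MEC it was lower than on WT MEC in both settings, and by more with backgrounds replaced. Whether the probe reads the deleted part is not given, so it does not check the genotype labels.

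The 4 basal keratins were all higher in P4 than in P5, by 4.22-fold to 8.81-fold in the ratio. Krt5, the type II partner of the basal pair, stood at 5.66 on het P4 and 4.73 on WT P4, against 2.62 on het P5 and 1.49 on WT P5. Krt14, its type I partner, stood at 5.39 on het P4 and 4.74 on WT P4, against 3.02 on het P5 and 2.22 on WT P5. Both P4 arrays lay above both P5 arrays for each partner. The log2 difference was 3.14 for Krt5 (SE 0.229, adjusted p = 0.00908) and 2.44 for Krt14 (SE 0.154, adjusted p = 0.00743), from a limma fit with terms for population and genotype over all 6 arrays. Krt17, a type I keratin of basal and appendage cells that is induced by wounding in skin, stood at 6.36 on het P4 and 5.54 on WT P4, against 3.57 on het P5 and 2.42 on WT P5. Its difference of 2.96 (SE 0.186, adjusted p = 0.00743) was again without overlap between the fractions. Krt15, a type I keratin of the basal layer and of hair follicle bulge cells, stood at 4.60 on het P4 and 3.96 on WT P4, against 2.15 on het P5 and 2.26 on WT P5. It had the smallest difference among the 4, at 2.08 (SE 0.233, adjusted p = 0.0169), and its P5 arrays were the closest together. In these bulk fractions fewer cells of a type and less RNA per cell cannot be told apart.

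The 4 simple keratins were all lower in P4 than in P5, by 6.32-fold to 13.5-fold in the ratio. Krt8, the type II partner of the simple pair, stood at 1.92 on het P4 and 2.13 on WT P4, against 4.68 on het P5 and 5.42 on WT P5. Krt18, its type I partner, stood at 1.03 on het P4 and 1.05 on WT P4, against 4.40 on het P5 and 5.02 on WT P5. The P4 arrays nearly coincided for each partner and lay far below the P5 arrays. The log2 difference was -3.03 for Krt8 (SE 0.52, adjusted p = 0.0374) and -3.66 for Krt18 (SE 0.417, adjusted p = 0.0174). Krt19, the smallest type I keratin, which lacks most of the tail domain, stood at 1.82 on het P4 and 1.85 on WT P4, against 5.44 on het P5 and 5.75 on WT P5. Its difference of -3.76 (SE 0.406, adjusted p = 0.0156) was without overlap as well, and at -3.71 in the sample channel alone it was nearly the same. Krt7, a type II keratin of ducts and glands, stood at 1.92 on both P4 arrays, against 4.44 on het P5 and 4.72 on WT P5, a difference of -2.66 (SE 0.326, adjusted p = 0.0198). The second probe of Krt7 gave -4.16 (adjusted p = 0.029) and the second probe of Krt8 gave -2.58 (adjusted p = 0.042), so the probes of each gene had the same direction but not the same size.

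Counted over the members, 4 were called higher in P4, 4 were called lower and 2 were not called, where 10.6% of all 24838 genes were called in either direction (5.04% higher and 5.53% lower). Krt6a, a type II keratin of hair follicles and activated skin that has also been used as a marker of mammary progenitor cells, stood at 0.57 on het P4 and 0.47 on WT P4, against 2.39 on het P5 and 2.95 on WT P5. The fractions did not overlap, but the difference of -2.15 (SE 0.531) missed the threshold with an adjusted p of 0.0798. Krt23, a less studied type I keratin, stood at 5.66 on het P4 and 4.12 on WT P4, against 4.84 on het P5 and 2.65 on WT P5. Here het P5 lay above WT P4, so the fractions overlapped, and the difference of 1.15 missed the threshold (SE 0.452, adjusted p = 0.204). Replacing outlier backgrounds brought it to 2.02 (adjusted p = 0.0838). Krt23 then stood at 5.95 on het P4 and 6.04 on WT P4, against 4.84 on het P5 and 3.12 on WT P5. The fractions did not overlap there. The same 8 members were called with backgrounds replaced, where 15% of all genes were. In 9 of the 10 members the P4 and P5 arrays did not overlap, 4 with P4 above and 5 with P4 below, against 46.1% of all genes. Leaving out any 1 of the 4 sorted arrays left no keratin called, and no gene of the array either; the direction of all 10 differences was the same in each such fit. With median centring of each array in place of the loess step Krt8 gave -3.14 (adjusted p = 0.0526). The other 7 were called there, where 3.64% of all genes were. In a fit on the 4 sorted arrays alone, which leaving out either MEC array also amounts to, all 10 were called, where 18.7% of all genes were.

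**Figure D1:**
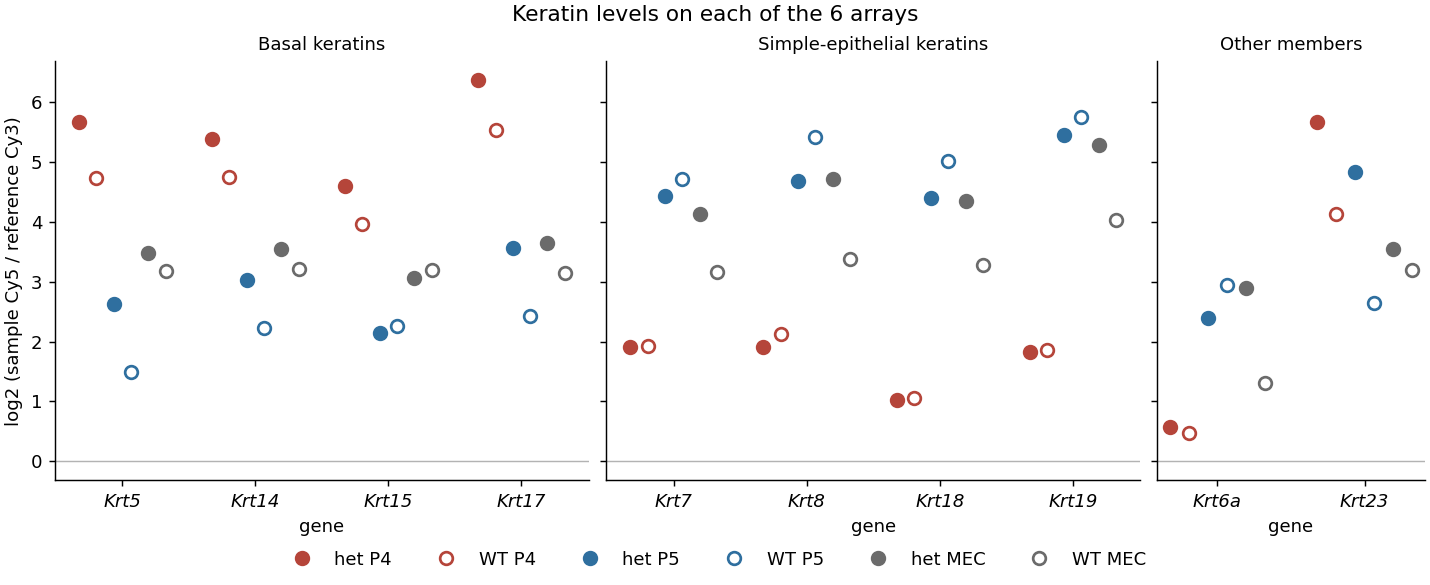
Log2 ratio of sample to reference (y axis) for each of the 10 keratins on the 6 arrays, 1 point per array, with het beside WT within P4, P5 and MEC. Krt5, Krt14, Krt15 and Krt17 are high on both P4 arrays and Krt8, Krt18, Krt7 and Krt19 on both P5 arrays. Krt23 overlaps between P4 and P5 with the backgrounds as given, which are those plotted.

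**Figure D2:**
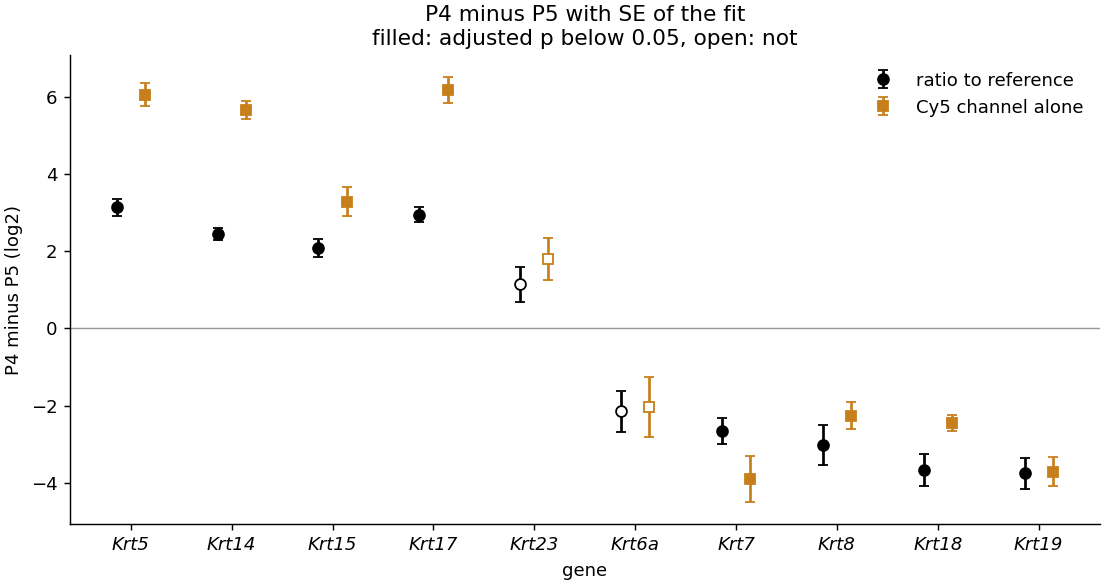
Log2 difference of P4 minus P5 for each keratin with its standard error from the limma fit over 6 arrays (black circles for the ratio, orange squares for the sample channel alone, filled where the adjusted p is below 0.05). The 4 basal keratins lie above 0 and the 4 simple keratins below 0 in both, and in the sample channel Krt5, Krt14 and Krt17 lie at 6.07, 5.67 and 6.19.

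The reference channel, which holds the same commercial RNA on every array per the labels, was not level for these genes. Within slide 1, the raw Cy3 signal of Krt14 was 7489 on het P4 and 12042 on WT P4, against 773 on het P5 and 928 on WT P5. After normalization the log2 Cy3 difference of P4 minus P5 was 3.23 for Krt17, 3.23 for Krt14 and 2.93 for Krt5. These ranked 2, 3 and 4 by size among 20883 genes above background on all arrays. Krt15 (1.21) and Krt18 (1.22) were also higher in P4 in the reference channel, Krt7 was lower (-1.25), and Krt19 was nearly level (0.05). For Krt18 and for Krt8 (0.76) this ran opposite to the sample channel, where they were lower in P4 (-2.45 and -2.27). In all, 6 of the 10 members had a Cy3 difference of at least 2-fold, among 26 such genes on the array. Genes were then counted only where Cy3 and Cy5 had the same direction, so those with opposite directions are left out. By that rule, 8 of the 26 were at least 8-fold higher in P4 in the Cy5 channel and 7 at least 8-fold lower. Those Cy5 limits were passed by 132 genes that were higher and 118 that were lower in P4. The cause was not tested.

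A difference in the reference channel enters the ratio with the opposite sign, so the sample channel was also fitted alone. There Krt5 was higher in P4 by 6.07 (SE 0.291, adjusted p = 0.0042), Krt14 by 5.67 (SE 0.239, adjusted p = 0.0042) and Krt17 by 6.19 (SE 0.345, adjusted p = 0.0047). These are about 3 log2 units above their ratio differences. Krt15 was higher by 3.29 (SE 0.376, adjusted p = 0.0136). For the simple keratins the sample channel gave -2.45 for Krt18 (SE 0.209, adjusted p = 0.0083), -2.27 for Krt8 (SE 0.35, adjusted p = 0.0253), -3.71 for Krt19 (SE 0.385, adjusted p = 0.0114) and -3.91 for Krt7 (SE 0.605, adjusted p = 0.0256). The same 8 keratins were called with the same directions in this channel, where 12.3% of all genes were called. The sizes changed between the readings: the difference of Krt18 was larger in size than those of Krt5, Krt14 and Krt17 in the ratio and smaller than all 3 in the sample channel.

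**Figure D3:**
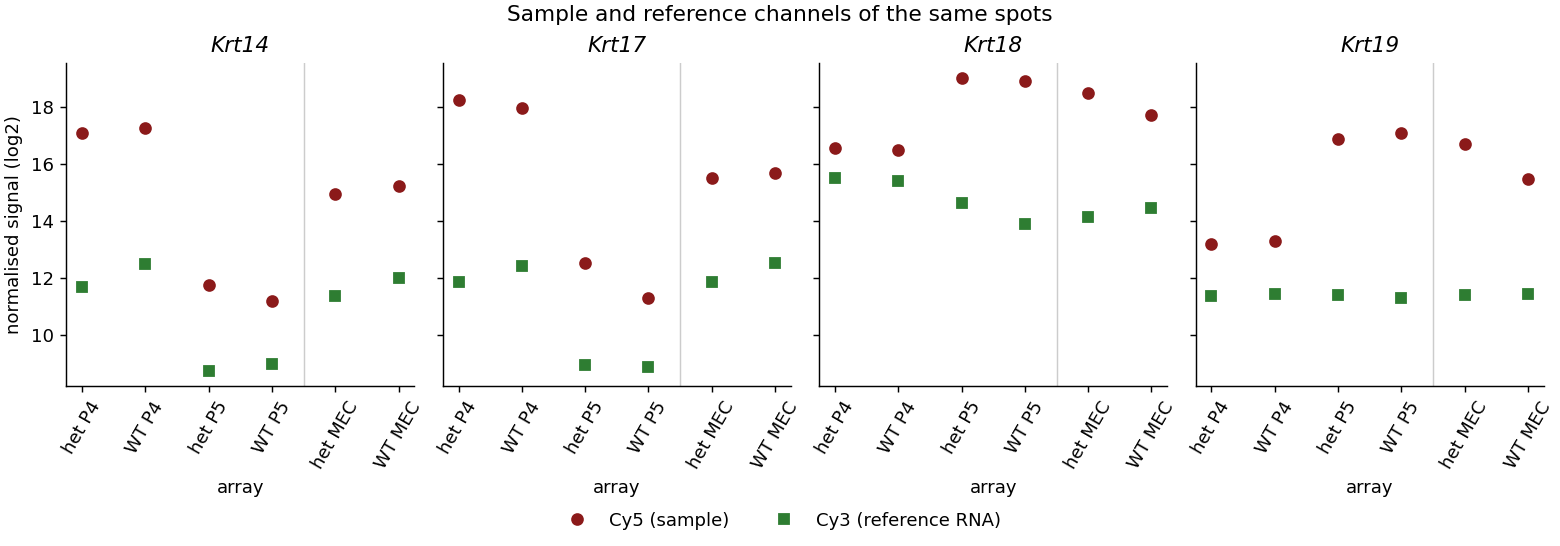
Normalized log2 signal of the sample channel (Cy5) and of the reference channel (Cy3) on the 6 arrays for the keratins named above each panel. The Cy3 level of Krt14 is 11.68 on het P4 and 12.50 on WT P4, against 8.75 on het P5 and 8.98 on WT P5, while that of Krt19 stays between 11.32 and 11.45 on all 6 arrays.

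Set against unsorted cells, 3 of the 4 basal keratins were called higher in P4 and 2 of the 4 simple ones lower. Of the 10 members 5 were called, 3 higher and 2 lower, where 6.86% of all genes were called (2.75% higher and 4.11% lower). Krt17 stood at 3.64 on het MEC and 3.14 on WT MEC, and its P4 minus MEC difference was 2.56 (adjusted p = 0.0211). Krt5 stood at 3.49 on het MEC and 3.18 on WT MEC, with a difference of 1.86 (adjusted p = 0.0299), and Krt14 at 3.55 on het MEC and 3.21 on WT MEC, with a difference of 1.68 (adjusted p = 0.0233). The 2 MEC arrays were close together for these basal keratins. Krt19 stood at 5.28 on het MEC and 4.03 on WT MEC, with a difference of -2.82 (adjusted p = 0.0374), and Krt18 at 4.34 on het MEC and 3.27 on WT MEC, with a difference of -2.77 (adjusted p = 0.04). For these simple keratins het MEC lay above WT MEC. Krt15 (1.15, and -0.13 with median centring), Krt23 (1.52), Krt7 (-1.72), Krt8 (-2.03) and Krt6a (-1.58) did not pass the test. All 10 members had P4 and MEC arrays that did not overlap, against 46.1% of all genes. With outlier backgrounds replaced 8 of the 10 were called (18% of all genes). With median centring Krt5 (0.51, adjusted p = 0.267) and Krt14 (0.29, adjusted p = 0.453) were not called. Without WT MEC all 10 were called (16.7% of all genes). Without any 1 of the 4 sorted arrays none was, and neither was any other gene of the array.

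Between P5 and MEC, a comparison that shares the MEC arrays with the one before, none of the 10 keratins was called by limma, where 3.93% of all genes were. By the unadjusted p of the same test, 4 of the 10 were below 0.05, as were 22.3% of all genes. The basal keratins had negative differences: -1.28 for Krt5 (adjusted p = 0.0643), -0.93 for Krt15 (adjusted p = 0.115), -0.76 for Krt14 (adjusted p = 0.0792) and -0.40 for Krt17 (adjusted p = 0.307). In the sample channel alone, where 6.32% of all genes were called, all 4 were called lower in P5, with -3.55 for Krt5, -3.59 for Krt14, -3.67 for Krt17 and -2.18 for Krt15. The simple keratins had positive differences (Krt18 0.90, Krt19 0.94, Krt7 0.94 and Krt8 1.0), with adjusted p from 0.197 to 0.349, and were negative with median centring (-0.51 to -0.40), where the median of all genes was -0.35. Krt7, Krt18 and Krt19 had P5 arrays above both MEC arrays and Krt5, Krt14 and Krt15 below both; the share of all genes without overlap was 48.7%. With outlier backgrounds replaced Krt5 was called (adjusted p = 0.0435, where 6.12% of all genes were). Without het MEC 7 members were called (8.23% of all genes), the 4 simple keratins and Krt6a higher in P5 and Krt5 and Krt14 lower. Cells other than epithelium differed along with this comparison: 4 of 6 fibroblast markers were called lower in P4 and 5 of 6 in P5 than in MEC, and 4 of 5 endothelial markers were called lower in each. The log2 summed Cy5 signal of the fibroblast markers was 14.66 to 15.16 in P4 and 13.26 to 14.26 in P5, against 17.59 to 18.46 in MEC. Their part in the keratin differences was not tested.

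The keratin genes lie in 2 clusters, type I on chromosome 11 and type II, with the type I gene Krt18, on chromosome 15. Of 27 keratins in the chromosome 11 cluster 23 were tested, of which 4 were called higher in P4 than in P5 and 1 lower. Of 26 in the chromosome 15 cluster 21 were tested, of which 1 was called higher and 4 lower. Over all genes 5.04% were called higher and 5.53% lower. Neighbouring keratin genes went the same way in some places and opposite ways in others. On chromosome 11 Krt15 was higher in P4, as was Krt13 on one side of it (1.14), while Krt19 on the other side was lower. On chromosome 15 Krt5 was higher, while its neighbour Krt6a had a negative difference that missed the threshold, as did Krt6b next to it (-1.15, adjusted p = 0.245). In the run Krt79, Krt78, Krt8 and Krt18 all 4 differences were negative, and all but that of Krt78 (-2.32, adjusted p = 0.129) were called.

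**Figure D4:**
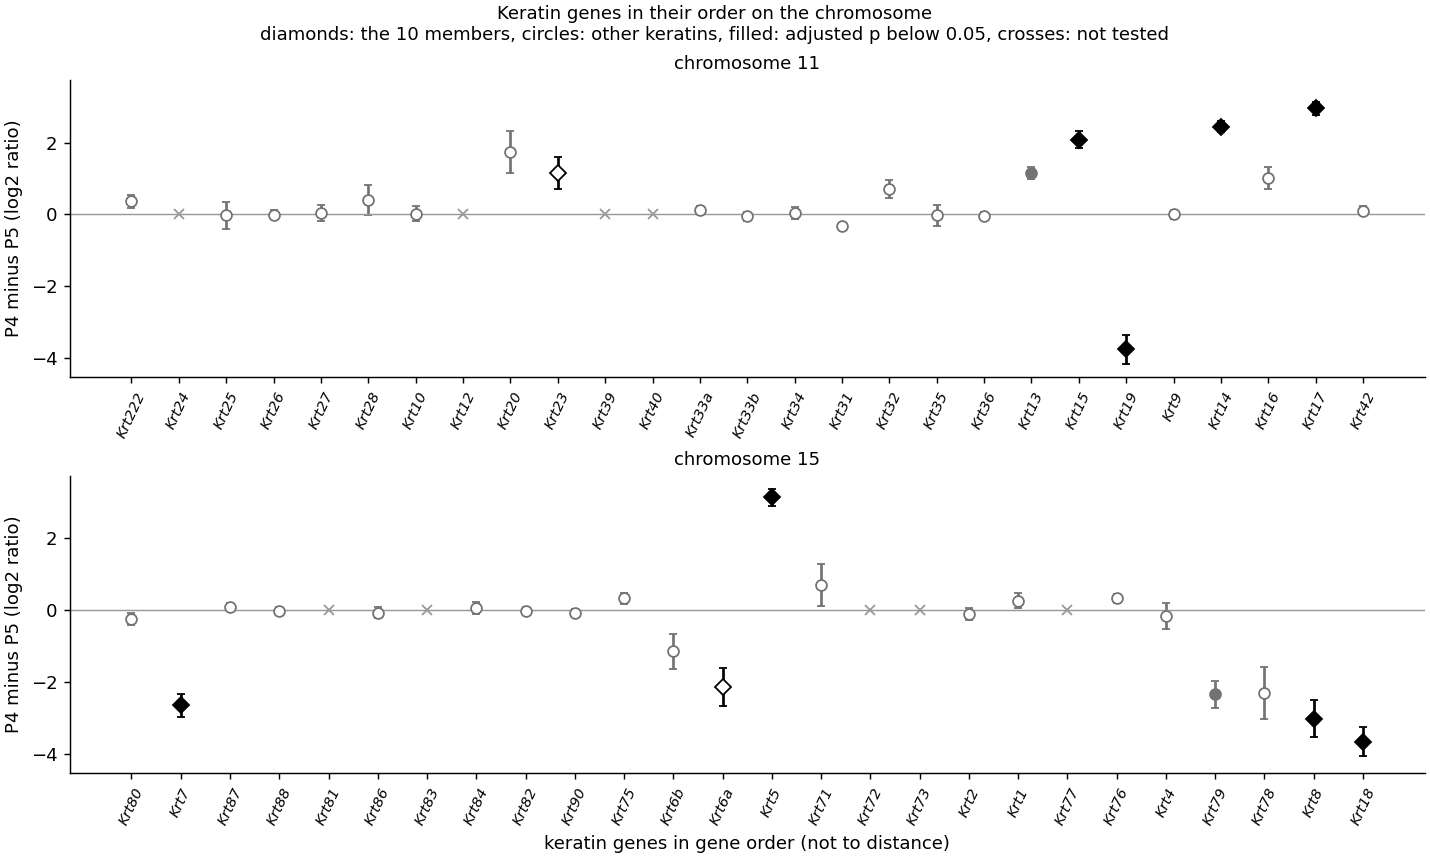
Log2 difference of P4 minus P5 (y axis) with its standard error for the keratin genes in their order along the chromosome 11 and chromosome 15 clusters (x axis, rank and not distance). Diamonds are the 10 members, circles other keratins, filled points have an adjusted p below 0.05 and crosses mark genes not tested. Most other keratins lie near 0, and the pair Krt15 and Krt19 takes opposite directions.

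Outside the 10 members the keratin family was mostly level between the sorted fractions. Of 36 other keratins on the array 35 were tested. In P4 against P5, 1 was called higher and 1 lower, where 5.04% of all genes were called higher and 5.53% lower. The median difference of the 35 was 0.01, against 0.04 over all genes. With outlier backgrounds replaced 3 were called higher and 1 lower, where 7.56% of all genes were called higher and 7.43% lower. Some were dim: 27 of the 35 were well above background on WT P4, against 35 on het P4, 32 on het P5 and 34 on WT P5. Krt13, a type I keratin of internal stratified epithelia such as the oesophagus, stood at 4.43 on het P4 and 4.17 on WT P4, against 3.24 on het P5 and 3.08 on WT P5, a difference of 1.14 (SE 0.171, adjusted p = 0.0287). Krt79, a type II keratin of hair follicle and sebaceous duct cells, stood at 0.35 on het P4 and 0.29 on WT P4, against 2.62 on het P5 and 2.72 on WT P5, a difference of -2.35 (SE 0.382, adjusted p = 0.0334). Neither overlapped between the fractions. Of 8 markers of skin keratinocytes, among them the differentiation keratins Krt1 and Krt10, 1 was called, the suprabasal protein gene Sbsn, which was lower in P4 at -1.54 (adjusted p = 0.0166).

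Of 16 other intermediate filament genes 3 were called higher in P4 than in P5 and none lower, where 10.6% of all genes were called. Synm, which encodes synemin, a filament protein of muscle cells, stood at 3.39 on het P4 and 3.03 on WT P4, against -1.29 on het P5 and -1.27 on WT P5, a difference of 4.48 (adjusted p = 0.00609). Vim, which encodes vimentin, the filament protein of mesenchymal cells that is also made by myoepithelium, stood at -1.16 on het P4 and -1.09 on WT P4, against -4.16 on het P5 and -4.92 on WT P5, a difference of 3.42 (adjusted p = 0.0144). Both genes were well apart between the fractions, and Sync, which encodes syncoilin, a protein of muscle filaments, was higher by 1.11 (adjusted p = 0.0127). Of 12 genes of proteins that tie keratins to desmosomes and hemidesmosomes 1 was called higher and 3 lower, where 10.6% of all genes were. Pkp1, the plakophilin of stratified epithelia, had a difference of 1.28 (adjusted p = 0.0178). Pkp2, the plakophilin of simple epithelia and heart, stood at -1.59 on het P4 and -1.60 on WT P4, against 1.22 on het P5 and 1.16 on WT P5, a difference of -2.79 (adjusted p = 0.00609). The plakins Evpl (envoplakin) and Ppl (periplakin), which partner each other, were lower in P4 at -3.07 (adjusted p = 0.0109) and -1.37 (adjusted p = 0.0177).

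Between the genotypes, over all 3 preparations, none of the 10 keratins was called by limma, and neither was any other gene (0% of 24838), although 5195 genes had an unadjusted p below 0.05. The lowest adjusted p was 0.206, shared by 2807 genes. Of the members, 4 were among them: Krt5 with a het minus WT difference of 0.79, Krt14 with 0.60, Krt17 with 0.82 and Krt23 with 1.36. The other 6 members had differences from 0.13 (Krt15 and Krt8) to 0.38 (Krt6a). All 10 were thus positive in the ratio, but with median centring the 4 basal and 4 simple keratins were negative, from -1.06 (Krt18) to -0.28 (Krt5), where the median of all genes was -0.21. Krt23 gave 0.29 (adjusted p = 0.82) with outlier backgrounds replaced. In the sample channel alone the differences were 0.08 for Krt5, 0.04 for Krt14 and 0.44 for Krt17, smaller than the ratio differences of the same genes. When the fit was restricted to the 4 sorted arrays, 3 members were called higher in het. They were Krt5 by 1.03 (adjusted p = 0.0331), Krt17 by 0.99 (adjusted p = 0.0405) and Krt23 by 1.87 (adjusted p = 0.0251). Of all genes 3.44% were called in that fit, 3.34% higher and 0.101% lower. The het minus WT difference of Krt23 within P4 was 1.54 as given and -0.10 with outlier backgrounds replaced. Its raw Cy3 signal was 70.6 to 178 over the 6 arrays, against median Cy3 backgrounds of 34 to 37.5. None of the 35 other keratins, the 16 other filament genes or the 12 linker genes was called between the genotypes over all 6 arrays.

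Within each preparation the genotypes have 1 array each, so values are given without a test, and a difference of at least 2-fold is counted as apart. The sizes depend on the loess step: with median centring in its place the P4 arrays had a median difference over all genes of -0.37, the P5 arrays of -0.20 and the MEC arrays of -0.04. Values under that setting are given beside the results. The 245 probes printed 10 times per array gave a technical SD of 0.142 for a het minus WT log2 difference, which covers spot error and not mice. In P4 1 of the 10 members was apart, Krt23, which was higher on het P4 by 1.54. Of all genes 6.02% were apart there, 5.91% higher on het P4 and 0.113% lower. With outlier backgrounds replaced the Krt23 difference was -0.10 and no member was apart (4.03% of all genes). Krt5 (0.93), Krt17 (0.83), Krt14 (0.65) and Krt15 (0.64) were positive in P4, and Krt7, Krt8, Krt18 and Krt19 were close to level, with -0.21 for Krt8 as the lowest. With median centring Krt5 (-0.73), Krt17 (-0.85), Krt14 (-1.02) and Krt15 (-0.93) were negative in P4, and the simple keratins lay between -1.88 (Krt8) and -1.55 (Krt7). All 7 basal and myoepithelial markers, which include Trp63, were higher on het P4 too (median 0.71, and 0.07 with outlier backgrounds replaced). The fibroblast and endothelial markers had medians of 0.74 and 0.71 (0.63 and -0.08 with outlier backgrounds replaced). Of 9 luminal markers 8 were higher on het P4 (median 0.51, and -0.09 with outlier backgrounds replaced). The part of all these markers in the P4 values was not tested. In P5 3 members were apart, all 3 higher on het P5: Krt23 by 2.19, Krt17 by 1.14 and Krt5 by 1.13. Of all genes 3.08% were apart there, 2.54% higher on het P5 and 0.54% lower. The same 3 were apart with outlier backgrounds replaced (3.18% of all genes). Krt14 was at 0.80 and Krt15 at -0.11 in P5, while the 4 simple keratins were negative, from -0.74 (Krt8) to -0.28 (Krt7). With median centring Krt5 was at 0.41 and Krt17 at 0.27 in P5, Krt23 at 1.49, and the simple keratins were at -1.62 (Krt8) to -1.20 (Krt19). In the sample channel alone Krt5 was at 0.12 in P4 and 0.65 in P5, Krt17 at 0.27 in P4 and 1.21 in P5, and Krt14 at -0.17 in P4 and 0.57 in P5. Cell type markers differed alongside: all 7 basal and myoepithelial markers (median 0.63) and all 6 fibroblast markers (median 0.94) were higher on het P5. So were all 5 endothelial markers (median 0.48) and 5 of 9 luminal markers (median 0.52). Their part in the P5 values was not tested.

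In MEC the simple keratins were higher on the het array. Krt8 was higher by 1.34, Krt19 by 1.25, Krt18 by 1.06 and Krt7 by 0.96, and Krt6a by 1.60. Of the 10 members 4 were apart (Krt6a, Krt8, Krt18 and Krt19), where 2.71% of all genes were (2.01% higher and 0.692% lower). The basal keratins differed less in the ratio: Krt17 by 0.50, Krt14 by 0.34, Krt5 by 0.31 and Krt15 by -0.14. With median centring the simple keratins were nearer to level, with 0.41 for Krt19, 0.35 for Krt8, 0.13 for Krt7 and 0.025 for Krt18, Krt6a was at 1.33 and the 4 basal keratins were negative. In the sample channel alone all 4 basal keratins were lower on het MEC, from -1.73 (Krt15) to -0.18 (Krt17), and the simple keratins were higher, with 1.55 for Krt7, 1.23 for Krt19, 1.04 for Krt8 and 0.78 for Krt18. With outlier backgrounds replaced, Krt8 (1.28), Krt19 (1.14) and Krt18 (1.01) were 2-fold or more apart and Krt6a (0.86) was not, where 2.22% of all genes were apart. Cell type markers differed between the same arrays: all 6 fibroblast markers were lower on het MEC (median -0.86), with a log2 summed Cy5 signal of 17.59 on het MEC, against 18.46 on WT MEC. All 9 luminal markers were higher (median 1.02, and 0.22 with outlier backgrounds replaced), with a summed signal of 16.33 on het MEC, against 15.80 on WT MEC. The 7 basal and myoepithelial markers had a median of -0.16 and a summed signal of 17.19 on het MEC, against 17.52 on WT MEC. All 5 endothelial and all 5 adipocyte markers were higher on het MEC (medians 0.54 and 0.49). With outlier backgrounds replaced the medians of these 2 lists were -0.12 and -0.05. The part of these markers in the keratin differences was not tested.

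**Figure D5:**
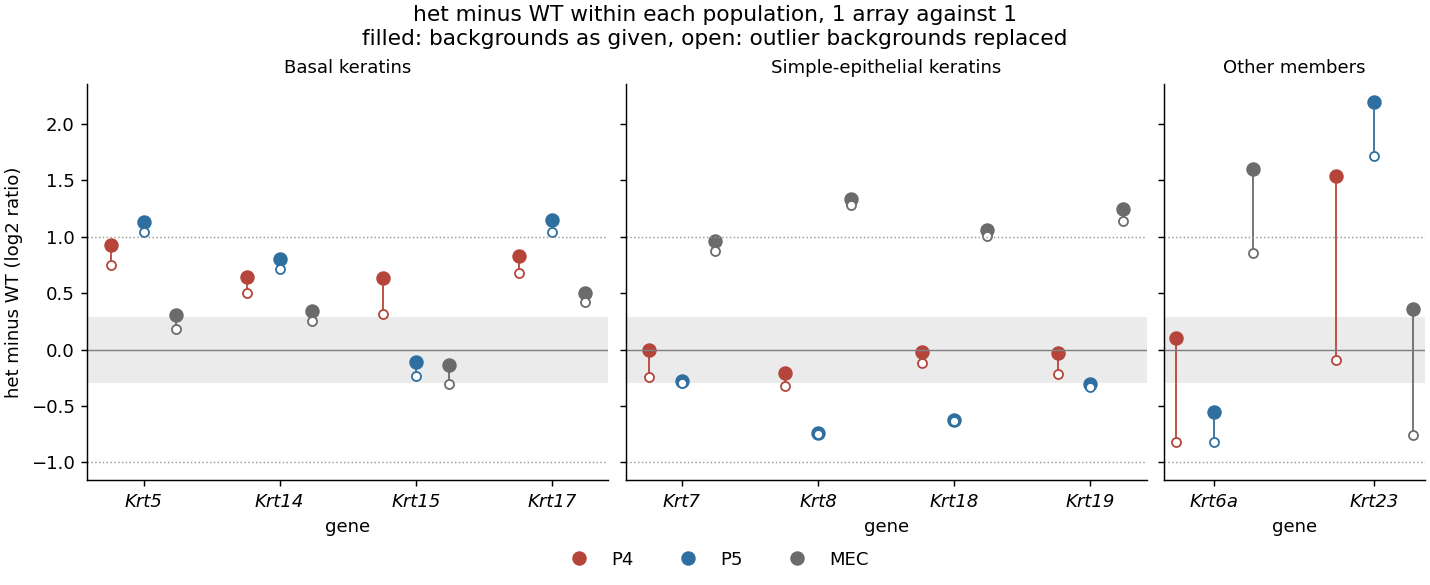
Log2 difference of het minus WT (y axis) for each keratin within P4, P5 and MEC, 1 array against 1, with filled points for the ratio as given and open points for outlier backgrounds replaced. The grey band spans 0.283, which is 2 technical SDs, on each side of 0, and dotted lines mark 2-fold. Krt8, Krt18 and Krt19 lie below 0 in P5 and above 1 in MEC in both settings, and Krt23 in P4 is at 1.54 as given and at -0.10 with them replaced.

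Across the 6 arrays the members fell into 2 blocks. The log2 ratios of the 4 basal keratins correlated at 0.897 to 0.994 with each other, those of Krt6a and the 4 simple keratins at 0.962 to 0.998, and the basal with the simple ones at -0.947 to -0.886 (Pearson's r). Krt23 followed the basal keratins more loosely, at 0.543 (Krt15) to 0.804 (Krt17), and had -0.607 to -0.534 with Krt6a and the simple keratins. These are descriptions over 6 arrays that share a reference RNA, 3 preparations and 2 slides. Among the 1217 genes compared, those whose ratios ran closest to those of Krt14 included Apoe, a lipid carrier protein (0.996), Alpl, an alkaline phosphatase (0.990), Rasl12 (0.988) and Speer4d (0.986). The 5 closest to Krt8 were Homer2, a scaffold protein (0.998), Tmprss4, a membrane serine protease (0.997), Lpin2, a phosphatidate phosphatase (0.997), Mlph, melanophilin (0.995), and Capn5, a calpain protease (0.995).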

How the data were processed

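Total RNA of 6 preparations, 1 array each, was measured on 2-colour arrays with sample RNA in Cy5 and reference RNA in Cy3. The deposited scanner files hold spot intensity values from Agilent Feature Extraction 9.5.3.1, with a log10 ratio of red over green, per the file headers; probe positions are on build mm7. The authors also deposited a series table of log2 ratios, which tracked the scanner's ratio and runs as sample over reference. Here the mean and local background intensities were corrected (normexp, offset 50) and loess-normalized within arrays. Spots of a probe were averaged, and a probe was kept where the scanner software called Cy5 well above background on 2 or more of the 6 arrays. Each gene was read from its brightest probe in Cy5. limma 3.58.1 in R 4.3.3 fitted log2 ratios on population and genotype, with 2 residual degrees of freedom and Benjamini-Hochberg adjustment over 24838 genes; an adjusted p below 0.05 was called. The fit was tested on simulated data. Array number limits precision.

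Gene names came from the files, updated through RefSeq by accession (22951 probes) or synonym (3109 probes). Named genes were the 10 keratins; other keratins called in P4 against P5 at 2-fold or more; other filament and linker genes called there; Trp63; and the 5 genes closest to Krt14 and to Krt8 by Pearson correlation among genes above background on all arrays with an SD of at least 1. One gene that this rule names is not reported here. Marker lists were fixed too, and genes named from them, such as the surface proteins and Sbsn, and the neighbouring keratins Krt6b and Krt78 were named after their values were seen. The members and lists were chosen with earlier results of these data known. Alternatives covered background correction, normalization, channel, filter, choice of probe, the deposited series table and arrays left out. Whether related keratins cross-hybridised was not tested.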

Additional observations from a re-analysis of the deposited data

Results flagged for a closer look

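Between het and WT, 4 keratins had opposite directions in P5 and in MEC, each by more than 2 technical SDs (0.283 on the log2 scale). The rule for this flag asked for the same with outlier backgrounds replaced, which all 4 met. The het minus WT log2 ratio of Krt8 was -0.74 in P5 and 1.34 in MEC. That of Krt18 was -0.62 in P5 and 1.06 in MEC, and that of Krt19 was -0.30 in P5 and 1.25 in MEC. Krt6a had -0.55 in P5 and 1.60 in MEC. With 1 array per genotype in each preparation, the difference between P5 and MEC was not tested. Opposite directions of this size, with backgrounds both as given and replaced, were met by 5.29% of 24691 genes. In this order, lower in P5 and higher in MEC, the share was 2.32%. In the sample channel alone Krt18 had 0.12 in P5, and with median centring it had 0.025 in MEC.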

How the results depend on the processing

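With 6 arrays and 2 residual degrees of freedom, the number of calls rests on single arrays. Of 10 keratins, the number called in P4 against P5 (8 as reported) ran from 0 to 10 when 1 array was left out and stayed at 7 to 10 under the other settings. In P4 against MEC (5 as reported) it ran from 0 to 10 with 1 array left out and was 8 with outlier backgrounds replaced. In P5 against MEC (0 as reported) it ran from 0 to 7 with 1 array left out. It was 1 there with outlier backgrounds replaced (6.12% of all genes). With median centring it was 4, all lower in P5, where 33.3% of all genes were called and 31.5% were called lower. The sample channel alone gave 4, all lower (6.32% of all genes called). That channel with outlier backgrounds replaced, a setting chosen after seeing the data, also gave 4, all lower (7.07% of all genes called). In het against WT (0 as reported) it ran from 0 to 3 with 1 array left out; leaving out either MEC array leaves the other fitted by its own term and equals the fit on the P4 and P5 arrays alone for het against WT and P4 against P5. There it was 1 with a normexp offset of 0 (Krt23, where 1.67% of all genes were called), 1 with median centring (Krt15, adjusted p = 0.0285, where 31.6% were called) and 3 with the P4 and P5 arrays alone. The causes were not tested, nor was the part of having fewer arrays in the fits that leave some out. The fit already compares populations within genotype through its genotype term; a block by replicate number was not possible because each group has 1 array and the labels carry no such numbers.

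Of 668 differences under 18 alternatives, 51 reversed. With median centring the median over all genes was -0.21 in het against WT, -0.23 in P4 against MEC and -0.35 in P5 against MEC, against 0.07, 0.04 and 0.03 as reported. The share of all genes called was 1.33% higher and 27% lower in P4 against MEC, against 2.75% and 4.11% as reported, and 1.8% higher and 31.5% lower in P5 against MEC, against 0.922% and 3.01%. In the same setting the het minus WT difference was -0.28 for Krt5, -0.52 for Krt14, -0.86 for Krt15, -0.33 for Krt17, -0.87 for Krt7, -1.05 for Krt8, -1.06 for Krt18 and -0.81 for Krt19. P5 minus MEC was -0.43 for Krt7, -0.40 for Krt8, -0.51 for Krt18, -0.41 for Krt19 and -0.39 for Krt23, and P4 minus MEC was -0.13 for Krt15. In het minus WT Krt15 gave -0.075 with outlier backgrounds replaced, -0.043 with the scanner's ratio, -0.043 with the deposited table, -0.83 with the sample channel alone, -0.91 with that and replaced backgrounds, and with 1 array left out it ran from -0.13 (without het P4 or WT P4) to 0.26. Krt6a gave -0.26, -0.22, -0.22, -0.11 and -0.34 under the same 5 settings, and -0.23 with the sorted arrays alone. With the sorted arrays alone, and without het MEC or WT MEC, het minus WT was -0.14 for Krt7, -0.47 for Krt8, -0.32 for Krt18, -0.17 for Krt19 and -0.23 for Krt6a; leaving out the other arrays took these to at most 0.48 for Krt7, 0.56 for Krt8, 0.52 for Krt18, 0.61 for Krt19 and 0.85 for Krt6a. In P5 minus MEC Krt23 gave -0.23 with the scanner's ratio and with the deposited table, -0.47 with the sample channel, -0.61 with that and replaced backgrounds, -0.25 without het P5 and -0.39 without het MEC, with 1.12 as the highest with 1 array left out. Krt6a there gave -0.28 with the sample channel, -0.44 with that and replaced backgrounds, -0.13 without WT P5 and -0.34 without WT MEC, with 1.48 as the highest. Of the het minus WT values within preparations that were at least 2-fold apart as reported, Krt23 in P4 changed sign, under 5 alternatives. It was -0.10 with replaced backgrounds, -0.27 with the scanner's ratio and with the deposited table, -0.081 with the sample channel and -0.27 with that and replaced backgrounds.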
